A study of Mus musculus with 4 samples.

Results

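Exonic regions called in the peak lists of one genotype only were examined in bone marrow-derived macrophages (BMDMs) of WT mice and of mice with a conditional knockout of histone H3.3 (H3.3cKO). Members were defined by the calls themselves. Peaks of the 4 ATAC-seq libraries were merged where they shared 1 bp or more. An autosomal merged region was kept if its centre lay in an annotated exon and not in a promoter, which reached from 1000 bp before a transcription start site (TSS) to 100 bp after it. A region was gained if both H3.3cKO libraries and no WT library had a peak in it, and lost if both WT libraries and no H3.3cKO library had one. This gave 131 gained and 295 lost regions, together 426 of 4731 autosomal exonic regions and of 71243 merged regions in all. A further 4 gained and 1 lost exonic regions on the X chromosome were left out.

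ATAC-seq marks open chromatin through the insertion of sequencing adapters by the Tn5 transposase. By the study's protocol, BMDMs were grown for 6 to 8 days with 20% L929-conditioned medium from bone marrow of young adult C57BL/6 mice. For ATAC-seq the study names the middle day of this range. The study as a whole used mice of both sexes. Each genotype had 2 libraries labelled as biological replicates. WT mice were H3f3a fl/fl H3f3b fl/fl, so both genotypes carried the floxed alleles of the genes that encode H3.3, and the H3.3cKO mice were also LysM cre/cre. LysM-Cre is expressed from the Lyz2 locus in myeloid cells, so that deletion depends on Cre activity during differentiation and need not be complete in every cell. Replicates 1 and 2 held 55742 and 64939 peaks in WT and 51955 and 60884 in H3.3cKO. Replicate 2 thus had more peaks than replicate 1 in either genotype, and WT more than H3.3cKO at either replicate number. Promoters of 9 of 10 macrophage marker genes, such as Adgre1 and Csf1r, were called in all 4 libraries, and that of Spi1 in none. Among 20 marker genes of T cells, B cells, neutrophils and fibroblasts, the promoter of Ms4a1 was called in all 4 libraries, Camp in both WT libraries and H3.3cKO replicate 2, Ly6g in both H3.3cKO libraries, Cd2 in WT replicate 2 and the other 16 in none. The part of other cell types in the results was not tested.

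H3.3 is the replication-independent variant of histone H3. It is deposited throughout the cell cycle at active promoters, at enhancers and along transcribed gene bodies, where it replaces nucleosomes lost during transcription. Exons are commonly rich in nucleosomes, and an accessible site within an exon away from a promoter can be an internal promoter that is not annotated, an enhancer that overlaps coding or untranslated sequence, or an open stretch of a highly transcribed gene body. First exons begin at the TSS, inner exons are mostly coding, and last exons hold most of the 3′ untranslated region (UTR).

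To show where such regions lie with respect to splice sites, the sequence around the centre is given for the 2 gained and the 2 lost regions with the highest ranks among those centred in coding sequence, together with H3f3a exon 2, the exon that the study flanked with loxP sites. All are from mm10, 5′ to 3′ on the strand of the gene, with the coding bases of the named exon in capitals and intron bases in lower case. Stretches of UTR are left out.
Rasgef1b exon 16 of 17, gained, chr5:99221273-99221473, reverse strand: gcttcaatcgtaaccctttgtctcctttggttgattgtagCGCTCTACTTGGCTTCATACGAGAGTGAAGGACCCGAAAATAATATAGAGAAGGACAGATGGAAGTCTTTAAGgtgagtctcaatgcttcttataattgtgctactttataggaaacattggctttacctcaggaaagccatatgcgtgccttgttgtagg
Atp1b3 exon 7 of 7, gained, chr9:96333578-96333778, reverse strand: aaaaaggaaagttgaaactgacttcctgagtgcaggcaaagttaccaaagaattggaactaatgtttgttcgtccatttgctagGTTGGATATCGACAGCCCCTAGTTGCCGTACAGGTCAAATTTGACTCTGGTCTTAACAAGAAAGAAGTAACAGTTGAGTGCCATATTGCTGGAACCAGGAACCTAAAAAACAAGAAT
Cep152 exon 21 of 28, lost, chr2:125579753-125579953, reverse strand: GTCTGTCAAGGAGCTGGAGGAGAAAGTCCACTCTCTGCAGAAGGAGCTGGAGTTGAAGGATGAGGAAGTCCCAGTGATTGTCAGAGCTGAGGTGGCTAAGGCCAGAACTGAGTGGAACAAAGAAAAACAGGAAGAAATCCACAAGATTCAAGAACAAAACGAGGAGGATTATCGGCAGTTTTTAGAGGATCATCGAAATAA
Acsl5 exon 19 of 22, lost, chr19:55294177-55294377, forward strand: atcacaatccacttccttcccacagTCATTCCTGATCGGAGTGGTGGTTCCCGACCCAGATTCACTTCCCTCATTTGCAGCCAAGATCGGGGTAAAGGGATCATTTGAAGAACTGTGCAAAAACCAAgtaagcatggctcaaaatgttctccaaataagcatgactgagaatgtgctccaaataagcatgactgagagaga
H3f3a exon 2 of 4, lost, chr1:180811785-180811926, reverse strand: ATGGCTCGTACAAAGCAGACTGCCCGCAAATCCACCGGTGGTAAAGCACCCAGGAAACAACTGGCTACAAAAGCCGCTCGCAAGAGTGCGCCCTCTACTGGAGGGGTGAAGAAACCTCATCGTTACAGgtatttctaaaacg

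The deleted genes come first, since they check the labels. H3f3a (ENSMUSG00000060743.12) had a lost region of 341 bp at chr1:180811715-180812055 around exon 2. Its peak area, ranked among all peaks of the same list, stood at percentile 5.02 in WT replicate 1 and 19.1 in WT replicate 2, and no peak lay there in either H3.3cKO library. Both WT peaks thus ranked low in their lists. The promoter region of H3f3a was called in all 4 libraries, at 96.0 and 97.2 in the WT lists and 93.4 and 94.1 in the H3.3cKO lists. In these libraries a peak missing over a deleted exon and a peak missing through closed chromatin cannot be told apart. H3f3b (ENSMUSG00000016559.14) had no gained or lost exonic region, and its region of 1122 bp at chr11:116023771-116024892, classed as intron, was called in all 4 libraries. It stood at percentiles 94.2 and 95.5 in the WT lists and 87.0 and 81.4 in the H3.3cKO lists. The region of 412 bp at the annotated start of H3f3b was called in all 4 libraries as well. It stood at 23.7 and 34.3 in the WT lists and 28.7 and 42.5 in the H3.3cKO lists. The positions of the loxP sites around H3f3b are not given in the sources used here. Whether these H3.3cKO peaks lie between the sites was therefore not tested. The study describes the deletion of this gene as variable, with complete and partial cases. It also reports excision of both genes by PCR. By qRT-PCR, RNA-seq and western blot, it found H3.3 reduced in knockout BMDMs, as transcript and as protein. How complete the deletion of H3f3b was in these libraries was not tested.

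Exonic regions had a smaller share called in one genotype than merged regions as a whole. Of the autosomal exonic regions, 2.77% were gained and 6.24% were lost, against 3.76% and 7.32% of all 69349 autosomal merged regions. Promoter regions had the lowest shares, 1.62% gained and 2.43% lost. Intron regions stood at 3.8% gained and 8.88% lost, and intergenic regions at 4.96% gained and 7.52% lost. Of the other exonic regions, 3229 were called in all 4 libraries and 1076 in some other combination. The 2 counts depended on single libraries: 277 regions were gained without WT replicate 2 and 349 without H3.3cKO replicate 1, while 581 were lost without WT replicate 1 and 526 without H3.3cKO replicate 2. With all lists cut to the same number of peaks, 198 regions were gained and 253 lost. The WT lists were longer than the H3.3cKO lists, and the part of list length in the larger count of lost regions was not tested.

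Exonic peaks made up a similar part of each list. Their share of the autosomal peaks was 6.79% in WT replicate 1, 6.80% in WT replicate 2, 6.62% in H3.3cKO replicate 1 and 6.78% in H3.3cKO replicate 2. Both H3.3cKO values lay below both WT values, with a mean difference (H3.3cKO minus WT) of -0.0956 percentage points (6.70% ± 0.109 in H3.3cKO and 6.79% ± 0.00537 in WT, SD, n = 2; exact permutation test, two-sided, p = 0.333, which is the smallest p that 4 libraries allow). The difference was -0.0181 points without H3.3cKO replicate 1 and -0.173 without H3.3cKO replicate 2. Among exonic peaks the share in last exons was 32.4% and 34.4% in WT and 33.3% and 33.7% in H3.3cKO, with overlapping groups and a mean difference of 0.123 percentage points (exact permutation test, two-sided, p = 1).

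The last exon was the commonest position of gained and of lost regions, as it was of exon bases, while the first exon was the commonest position of exonic regions called in all 4 libraries. Position was taken from the transcript that holds the centre, with protein-coding transcripts preferred and then the longest. Among gained regions, 7 (5.34%) were in a first exon, 28 (21.4%) in an inner exon, 71 (54.2%) in a last exon and 25 (19.1%) in the only exon of a transcript. Among lost regions, 41 (13.9%) were in a first, 71 (24.1%) in an inner, 143 (48.5%) in a last and 40 (13.6%) in a single exon. Regions called in all 4 libraries had 44.5% in first, 15.2% in inner, 28.6% in last and 11.7% in single exons. For comparison, exon bases outside promoters, sampled every 100 bp, fell 5.39% in first, 29.4% in inner, 49.4% in last and 15.9% in single exons. The first-exon share of the gained regions was thus close to that of exon bases, and that of the lost regions lay between exon bases and the regions called throughout. The last-exon shares of both sets, 54.2% and 48.5%, stood beside 49.4% of exon bases.

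**Figure D1:**
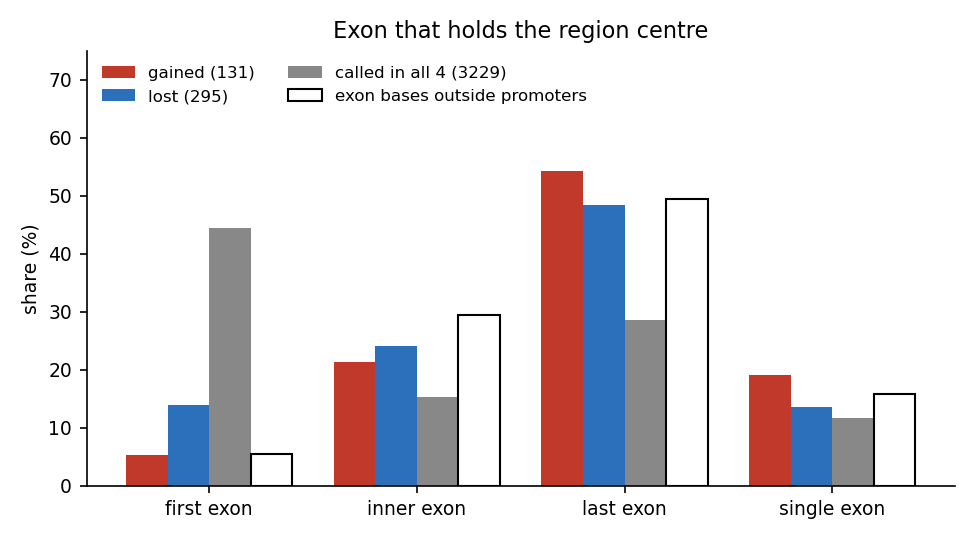
Share of regions (%) by the exon that holds the region centre, for gained (131), lost (295) and exonic regions called in all 4 libraries (3229), beside the share of annotated exon bases outside promoters (white bars). The last exon is the tallest class for gained (54.2%) and lost (48.5%) regions, and the first exon for regions called in all 4 (44.5%).

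Read the other way, the share called in one genotype differed with exon position. Of 1613 first-exon regions, 0.434% were gained and 2.54% lost. Of 848 inner-exon regions, 3.3% were gained and 8.37% lost. Last exons had 1664 regions, of which 4.27% were gained and 8.59% lost, and single exons had 606, of which 4.13% were gained and 6.6% lost. First-exon regions therefore had the lowest share in both directions. Peak rank moved with position: first-exon regions called in all 4 libraries had a median percentile of 84.8, against 53.8 for inner and 52.5 for last exons, and its part in these shares was not tested.

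The last-exon share was 5.72 percentage points higher and the first-exon share 8.55 points lower in gained than in lost regions. No test was made of these differences, since regions of the same libraries are not replicates. When the libraries numbered 1 were compared with each other, 298 regions were gained and 546 lost, with 6.38% and 15.4% in first exons and 55.0% and 46.9% in last exons. For the libraries numbered 2 the counts were 351 and 612, with 9.40% and 11.8% in first exons and 52.1% and 49.3% in last exons. Both differences were smaller in the pair numbered 2. The sets of each pair contain all 131 gained and 295 lost members, so their direction is no independent support. With promoters widened to 2.5 kb on both sides, the first-exon difference shrank to 1.08 points, with 0 gained and 2 lost regions left in first exons.

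Gained regions in first exons were few. The 7 regions belonged to Rab10os, Chst3, Tmem82, Dthd1, Slco5a1, Gm47430 and Gm47150, which were named after their values were seen. Their width ranged from 252 to 868 bp and their distance to the nearest TSS from 163 to 1256 bp. Their mean percentile had a median of 23.1, against 16.5 in inner, 17.4 in last and 17.7 in single exons of the gained set and 24.3 in lost first-exon regions. The 41 lost first-exon regions had a median width of 529 bp, a median distance of 272 bp to the nearest TSS and a median GC content of 62.7%, and 23 were centred in the 5′ UTR. First-exon regions called in all 4 libraries were wider (median 1096 bp) and closer to the TSS (median 177 bp), with a median GC content of 60.8%.

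With respect to the protein-coding parts of genes, 32 gained regions (24.4%) were centred in coding sequence, 3 (2.29%) in a 5′ UTR, 56 (42.7%) in a 3′ UTR and 40 (30.5%) in non-coding transcripts. The lost regions had 95 (32.2%) in coding sequence, 30 (10.2%) in a 5′ UTR, 99 (33.6%) in a 3′ UTR and 71 (24.1%) in non-coding transcripts. Exon bases outside promoters were 36.3% coding, 2.78% 5′ UTR, 33.8% 3′ UTR and 27.2% non-coding. Within last exons the makeup was close between the sets, with 51 of 71 gained and 97 of 143 lost regions in a 3′ UTR. The end of the transcript was within 500 bp for 22 of 71 gained, 45 of 143 lost and 280 of 923 shared last-exon regions, or 31.0%, 31.5% and 30.3%.

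Along the spliced transcript, gained regions lay further from the 5′ end. Their median position was 63.0% of the spliced length, against 46.7% for lost regions and 19.7% for regions called in all 4 libraries. In the 10% of the length nearest to the 5′ end lay 5 gained (3.82%) and 43 lost (14.6%) regions, and 89 gained (67.9%) and 138 lost (46.8%) regions lay past the middle. The medians were 59.6% and 47.3% in the libraries numbered 1 and 59.0% and 49.7% in those numbered 2. These sets contain all members too, so they are a description.

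**Figure D2:**
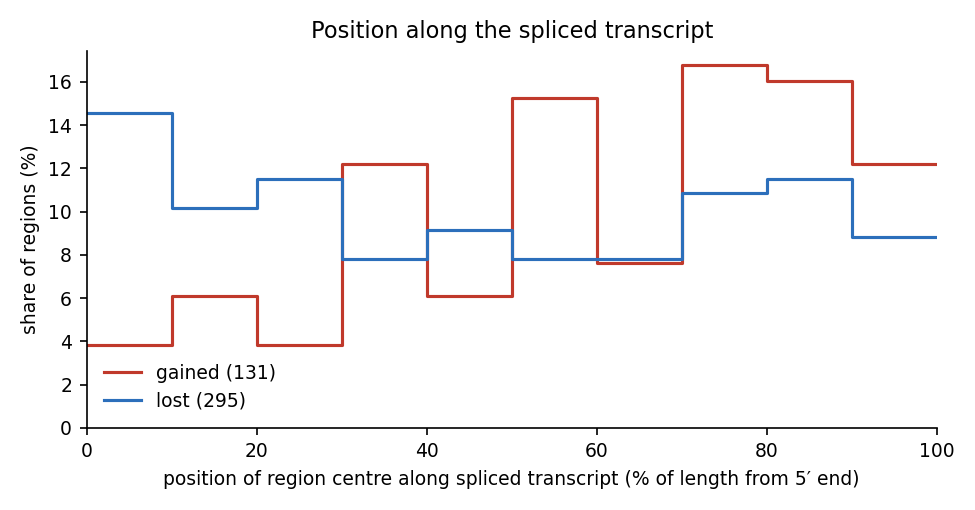
Share of gained (131) and lost (295) regions (%) in 10 bins of the position of the region centre along the spliced transcript (% of its length from the 5′ end). In the bin nearest to the 5′ end are 3.82% of gained and 14.6% of lost regions.

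Gained and lost regions were narrow and similar in median width. Gained regions had a median of 340 bp (195 to 6696 bp) and lost regions of 349 bp (196 to 1258 bp), against 804 bp for regions called in all 4 libraries. Regions of at least 1000 bp numbered 8 of 131 gained (6.11%), 2 of 295 lost (0.678%) and 1177 of 3229 shared (36.5%). The sets thus differed in their widest members rather than in their middle. The order of the medians was not stable: gained regions were wider by 58.0 bp without WT replicate 1 and by 44.5 bp without WT replicate 2, and narrower by 64.5 bp without H3.3cKO replicate 1 and by 48.0 bp without H3.3cKO replicate 2. A merged region spans the peaks of all libraries in it, so regions called in more libraries can be wider for that reason alone. The exon held the whole region in 77 of 131 gained (58.8%) and 158 of 295 lost (53.6%) cases, and the region held the whole exon in 17 (13%) and 67 (22.7%). Both ends lay within 50 bp of the exon ends in 4 gained and 10 lost regions, so few regions followed the ends of an exon.

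**Figure D3:**
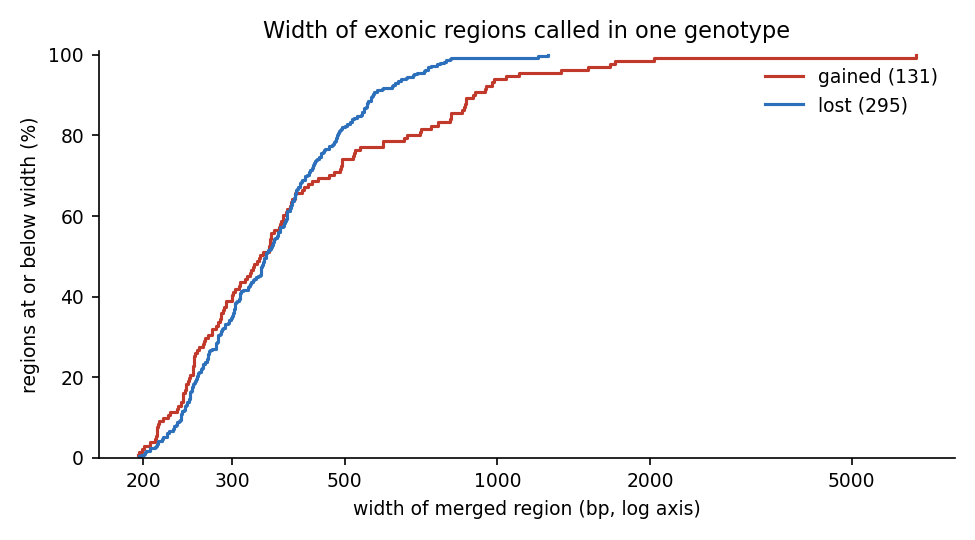
Cumulative share of regions (%) at or below each width (bp, log axis) for gained (131) and lost (295) regions. The curves run together near the medians of 340 and 349 bp and part above 400 bp, where the gained regions extend to 6696 bp and the lost regions to 1258 bp.

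The widest gained region covered the 3′ part of Plin2 (ENSMUSG00000028494.12), which encodes perilipin 2, a coat protein of lipid droplets. It spanned 6696 bp at chr4:86653558-86660253 with its centre in the 3′ UTR of exon 8 of 8, and it overlapped 3 exons. Exon 8 made up only 12.5% of the region, and the summit of its highest-ranked peak, at chr4:86654878, lay outside that exon. The region joined 2 peaks of H3.3cKO replicate 1 with 5 peaks of replicate 2, and its largest peaks stood at percentiles 98.1 and 92.6. Both H3.3cKO libraries therefore had a strong signal where no WT peak was listed, and the promoter of the gene was called in all 4 libraries. Rasgef1b (ENSMUSG00000089809.9), which encodes a guanine nucleotide exchange factor for Rap GTPases, followed with 2034 bp at chr5:99220357-99222390 around exon 16. The exon made up only 3.59% of this region, and the summit lay outside the exon. The percentiles of the region were 62.0 in H3.3cKO replicate 1 and 82.6 in replicate 2. Over its whole length the gene held 52 other regions, of which 12 were gained, 0 lost and 21 shared. Whether the gained ones lie next to each other was not tested.

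Atp1b3 (ENSMUSG00000032412.8), a beta subunit of the sodium-potassium pump, had a gained region of 1669 bp at chr9:96332844-96334512. It reached from the last intron into exon 7 and stood at percentiles 43.1 and 69.2. The gene held 5 other gained regions and 0 lost ones. Wide gained regions also lay in the pseudogenes Gm17849 (1705 bp, chr10:111179585-111181289) and Gm13340 (1509 bp, chr2:22588344-22589852), and the other 3 of at least 1000 bp were in Gpnmb (1338 bp), S1pr4 (1105 bp) and Mx1 (1041 bp). Pseudogenes can share reads with their parent genes, and the mapping filters are not known here, so the calls in them are uncertain.

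The widest lost region spanned 1258 bp at chr11:99040725-99041982 in the first exon of Igfbp4 (ENSMUSG00000017493.12), which encodes a binding protein of insulin-like growth factors. Its percentiles were 49.0 in WT replicate 1 and 56.4 in replicate 2. The next were A530083I20Rik with 1203 bp, Amigo1 with 811 bp, Gm43457 with 805 bp and the pseudogene Gm7177 with 791 bp. A530083I20Rik stood at percentile 16.3 in WT replicate 1 and 59.3 in replicate 2, a wide gap between replicates. Amigo1, a cell adhesion gene, stood at 30.4 and 30.9.

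Most gained and lost regions were weak peaks. The mean of the 2 percentiles had a median of 17.6 in gained and 19.8 in lost regions, and it exceeded 50 in 9 gained and 7 lost regions. The median percentile was 10.8 in H3.3cKO replicate 1 and 25.8 in replicate 2 for gained regions, and 14.5 in WT replicate 1 and 26.3 in replicate 2 for lost regions. Replicate 2 had the higher percentile in 111 of 131 gained and 251 of 295 lost regions. These peaks thus ranked higher in the longer list of each genotype. Since the calls chose the members, their ranks are given as a description.

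**Figure D4:**
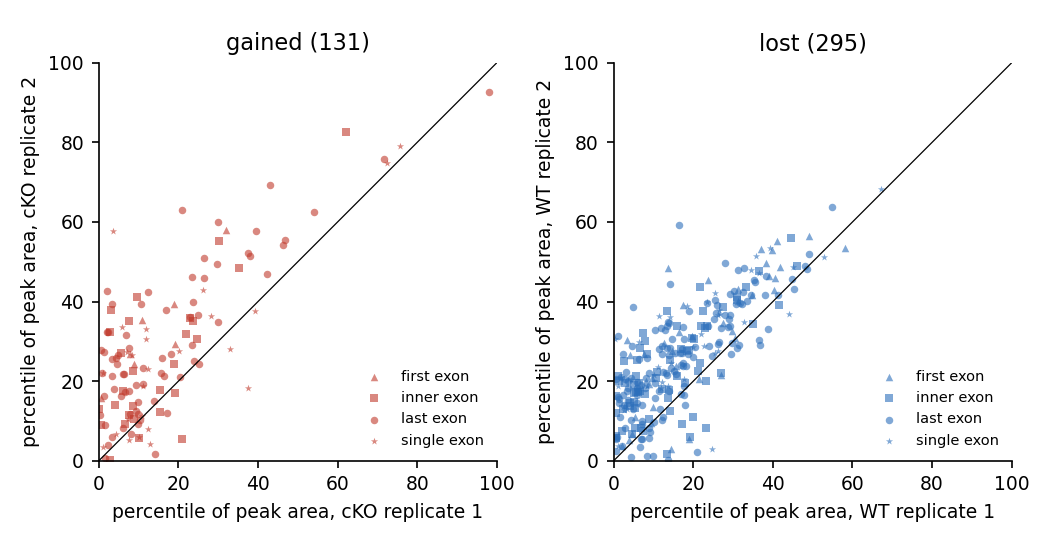
Percentile of the peak area among all peaks of the same list, replicate 1 (x axis) against replicate 2 (y axis), for each gained region in H3.3cKO (left) and each lost region in WT (right), with symbols for exon position and a line of equality. Points crowd below 50 on both axes and lie above the line in 111 of 131 gained and 251 of 295 lost regions.

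The calls depended on a limit at a peak area of 200, below which no peak was listed. Inside the limit, the lower of the 2 areas was 200.1 in the weakest gained and 200.7 in the weakest lost region, and it was under 250 in 67 gained and 109 lost regions. Outside, 146 exonic regions had peaks in both H3.3cKO libraries and in 1 WT library, with WT areas from 203.2 to 944.8. Likewise 252 had peaks in both WT libraries and in 1 H3.3cKO library, with areas from 200.1 to 748.0. A further 228 were called in 1 H3.3cKO library only and 303 in 1 WT library only. A missing peak therefore means an area under the limit, not the absence of accessible chromatin.

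Apart from Plin2, Rasgef1b and Atp1b3, the 10 gained regions with the highest mean percentile were mostly in 3′ UTRs. Gm2065, a transcript of unknown function, stood at 75.7 in H3.3cKO replicate 1 and 79.1 in replicate 2. Arpc1b, a subunit of the Arp2/3 complex that branches actin filaments, stood at 71.6 and 75.9 in its last exon at chr5:145128686-145129662. The pseudogene Gm17849 stood at 72.4 and 74.8. These ranks were close between replicates.

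Ppt1, a lysosomal enzyme that removes palmitate from proteins, stood at 54.2 and 62.5 in its last exon. Trib1, a pseudokinase that promotes the degradation of C/EBP proteins, stood at 46.7 and 55.4. P2ry14, a receptor for UDP-sugars, stood at 46.2 and 54.1, and Pbxip1, a PBX-interacting protein, at 39.5 and 57.8. A promoter of the host gene was called in all 4 libraries for 9 of these 10 regions. For Gm17849 no other region was called at the promoter, but the gained region itself spanned the start of the transcript.

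The 10 highest lost regions were more mixed in position. The pseudogene AC133523.3 led, at 67.1 in WT replicate 1 and 68.4 in replicate 2. Sh3bgrl2 followed with 54.9 and 63.8 in its 3′ UTR, and 2 other lost regions lay elsewhere in the gene. The long non-coding RNA 1700030E10Rik stood at 58.1 and 53.4 in its first exon, and St8sia6, a sialyltransferase, at 41.1 and 55.2 in its first exon. Apart from these first-exon regions themselves, no region was called at a promoter of 1700030E10Rik or St8sia6 in any library.

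Gbp2b, an interferon-inducible GTPase, stood at 49.0 and 52.0 in its last exon at chr3:142618593-142619075. It lies in a family of closely similar genes, so its calls are uncertain. Cep152, a centriole duplication factor, stood at 44.6 and 56.1 in coding exon 21, and Derl2, a component of the degradation machinery of the endoplasmic reticulum, at 48.1 and 48.9 in its 3′ UTR. Gm43195 and Gm16121, which do not code for proteins, stood at 52.7 and 51.2 and at 48.5 and 48.3. Among these 10 lost regions the gap between replicates was widest for St8sia6.

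The 426 regions fell in 419 genes, 129 with gained and 290 with lost regions, and 0 with both. Gpnmb, which encodes a glycoprotein of lysosome-rich macrophages, held 2 gained exonic regions. One of 1338 bp in its last exon (chr6:49056179-49057516) stood at 21.05 and 63.1, and one of 986 bp around coding exon 8 (chr6:49050536-49051521) at 7.56 and 35.2. Both were much weaker in H3.3cKO replicate 1 than in replicate 2. Rab10os, a non-coding transcript, also held 2 gained regions.

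Genes with 2 lost exonic regions were Adam1b, Camk1d, Creb1, Lrp1 and Tmem44. In Lrp1, a large endocytic receptor, the last exon of a short transcript stood at 38.7 in WT replicate 1 and 33.1 in replicate 2, and coding exon 22 of 89 at 27.5 and 38.6. In Creb1, a cAMP-responsive transcription factor, both lay in the last exon, at 32.3 and 39.4 and at 2.80 and 8.30. In Camk1d, a calmodulin-dependent kinase, both lay in the last exon, and the gene held 4 lost regions beside each of them. The single coding exon of Adam1b, a membrane protein with a metalloprotease domain, held both of its regions. In Tmem44 one lay in the first and one in the last exon.

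Other regions of the host genes were counted next. The 129 genes with gained exonic regions held 437 other regions, of which 8.92% were gained and 3.20% lost. The 290 genes with lost exonic regions held 932 others, of which 1.82% were gained and 9.66% lost. The 3000 genes with shared exonic regions held 8434 others, of which 3.82% were gained and 8.10% lost. Without Rasgef1b, the gained share beside gained regions was 7.01%. Another gained region lay in the host gene of 21 of 131 gained and 14 of 295 lost regions, and another lost region in that of 12 gained and 68 lost regions. Neighbouring regions of a gene share its domain, so these counts are a description.

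Genes of the lists that fit the tissue were then read, with lists chosen when earlier results of these data were known. Of 3262 protein-coding genes with an exonic region, 89 (2.73%) had a gained and 219 (6.71%) a lost one. Among 28 interferon-stimulated genes with an exonic region, 5 had a gained and 1 a lost one. Gbp2b, the interferon-inducible gene with the lost region described above, was not on this list. Ifit3, an antiviral tetratricopeptide protein, stood at 16.3 in H3.3cKO replicate 1 and 21.3 in replicate 2. Mx1, an antiviral dynamin-like GTPase, had a region of 1041 bp at chr16:97447262-97448302 in its last exon, at 2.13 and 42.7, beside 3 other gained regions. These ranks were low, and for Mx1 they differed widely between replicates.

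Trim30a, a regulator of innate signalling, stood at 9.43 and 19.0 beside 2 other gained regions. Ly6e, a membrane-anchored surface protein, stood at 9.33 and 12.7. Rnf213, a large ubiquitin ligase, was the one of the 5 outside a last exon, with coding exon 25 of 67 at 4.12 and 14.0. Aida, listed with these genes, had the lost region, at 4.78 in WT replicate 1 and 13.03 in replicate 2. Ifit3 and Trim30a have closely similar neighbouring genes, so their calls are uncertain.

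Among 23 genes of lysosomes and lipid droplets, 4 had a gained and 0 a lost exonic region. They were Plin2, Ppt1 and Gpnmb, given above, and Npc2, a lysosomal cholesterol carrier, at 24.98 in H3.3cKO replicate 1 and 36.6 in replicate 2. All 4 had a gained region in the last exon. Among 30 macrophage identity genes, 1 had a gained region, Sirpa, an inhibitory receptor for CD47, at 37.5 and 52.1 in its last exon, and 0 had a lost one. Among 14 p53 target genes, 1 had a gained region, Aen, an apoptosis-enhancing nuclease, at 26.3 and 46.0. In the sterol and lipid synthesis list (9 genes) and the list of replication-coupled histones (14 genes), 0 had either.

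Lost exonic regions fell in 2 of 15 genes of the cell cycle and DNA replication, with 0 gained. Mki67, a proliferation marker that coats mitotic chromosomes, stood at 23.5 in WT replicate 1 and 33.8 in replicate 2 in coding exon 12 of 14. Mcm10, a replication initiation factor, stood at 7.58 and 26.9 in its first exon. Of 9 nucleotide synthesis genes, 1 had a lost region, Gmpr, a guanosine monophosphate reductase, at 38.2 and 49.7 in its first exon, with no other promoter of the gene called. H3f3a was the 1 of 5 H3.3 genes and chaperones with a lost region. Among 52 zinc finger genes, Zfp235 and Zfp36l1 had gained and Zfp316, Zfp672 and Zscan29 lost exonic regions. Zfp235 stood at 42.3 in H3.3cKO replicate 1 and 47.0 in replicate 2, and Zfp36l1, which promotes the decay of AU-rich mRNAs, at 18.0 and 26.9. In WT replicates 1 and 2, Zscan29 stood at 23.8 and 45.4, Zfp672 at 13.6 and 18.8, and Zfp316 at 13.6 and 0.182, near the area limit. With so few genes in each list, the counts can move by 1 or 2 with the calls near the area limit.

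Most host genes of gained and lost regions had a called promoter in at least some library. Another region called in all 4 libraries lay at a promoter of the host gene for 78 of 131 gained (59.5%) and 156 of 295 lost (52.9%) regions. No other region was called there for 44 gained (33.6%) and 124 lost (42.0%) regions. The region itself was left out of these counts, even where it reached into a promoter. For shared regions, many of which lie in first exons next to a TSS and were not counted as a promoter of their own gene, these shares were 35.0% and 61.2%. Protein-coding genes hosted 90 gained (68.7%), 224 lost (75.9%) and 2612 shared (80.9%) regions. Processed pseudogenes, which are copies of spliced transcripts, hosted 5 gained (3.82%), 9 lost (3.05%) and 27 shared (0.836%) regions. Gained and lost regions both had lower GC content than shared ones, with medians of 48.5%, 49.6% and 55.6%. The ratio of observed to expected CpG had medians of 0.207, 0.282 and 0.532. The part of a region covered by repeats had medians of 8.33%, 7.06% and 6.89%.

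AP-1 matches had a higher share in gained than in lost exonic regions, and PU.1 matches the reverse. AP-1 factors such as Fos and Jun respond to stimuli, and PU.1, encoded by Spi1, sets the enhancers of macrophages. Consensus sequences were searched on both strands within 100 bp of the summit. The AP-1 sequence TGACTCA, or its reverse complement TGAGTCA, lay in 27 of 131 gained (20.6%) and 20 of 295 lost (6.78%) regions, against 9.10% of exonic regions called in all 4 libraries, 8.96% of all exonic regions and 13.5% of all autosomal regions. The PU.1 sequence GAGGAAGT lay in 7 gained (5.34%) and 41 lost (13.9%) regions, against 7.96%, 8.58% and 11.0%. The AP-1 share was 13.42% in gained and 6.59% in lost regions of the libraries numbered 1, and 16.0% and 6.21% in those numbered 2. The PU.1 share was 5.37% and 13.6% in the first pair and 6.27% and 12.7% in the second. These sets include all members, and their differences were smaller than those over all 4 libraries.

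By exon position, AP-1 matches lay in 16 of 71 gained and 10 of 143 lost last-exon regions, and in 5 of 28 and 5 of 71 inner-exon regions. PU.1 matches lay in 3 of 71 gained and 22 of 143 lost last-exon regions, and in 2 of 28 and 11 of 71 inner-exon regions. In first exons, AP-1 matches lay in 2 of 7 gained and 3 of 41 lost regions and PU.1 matches in 1 of 7 and 4 of 41. In single exons AP-1 matches lay in 4 of 25 and 2 of 40 regions and PU.1 matches in 1 of 25 and 4 of 40. The PU.1 share was thus higher in lost regions in inner, last and single exons, but not in first exons, where 1 gained region held a match. The C/EBP sequence TTGCNNAA lay in 13.7% of gained, 15.6% of lost and 9.17% of shared regions. The RUNX sequence AACCACA lay in 11.5%, 6.44% and 5.48%, the NF-kB consensus in 2.29%, 8.47% and 5.08%, and the CTCF consensus in 6.11%, 2.37% and 3.50%. No test was made, and a match is not a bound site.

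**Figure D5:**
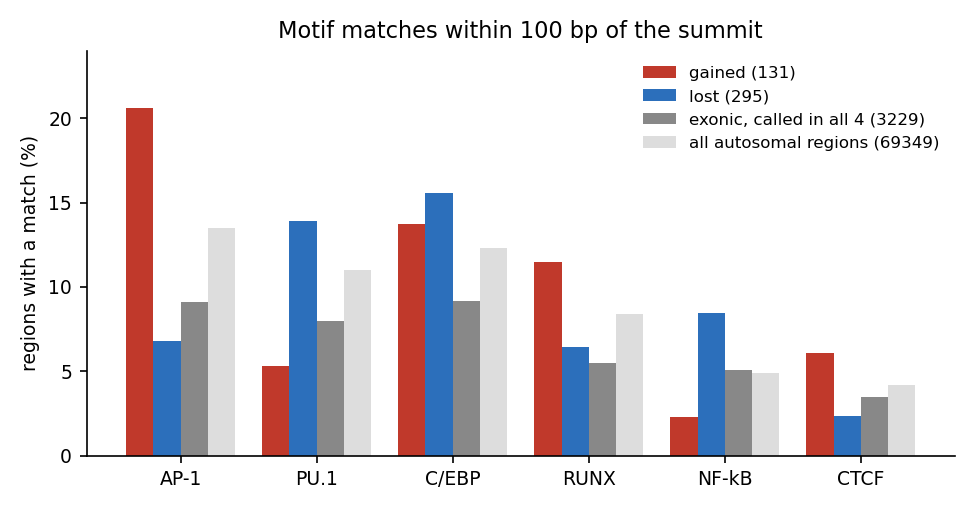
Share of regions (%) with a motif match within 100 bp of the summit, for gained (131), lost (295) and shared (3229) exonic regions and for all autosomal merged regions (69349). The gained bar is the tallest for AP-1 (20.6%) and the lost bar for PU.1 (13.9%).

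The AP-1 matches of the 6 gained regions with the highest ranks among those that hold one are shown with 10 bases on both sides and the motif in capitals, mm10, forward strand.
Gm2065, single exon, chr9:83115710-83115736: agtgtttccaTGACTCAcattggttta
Trib1, last exon, chr15:59653037-59653063: acccgagggtTGAGTCAtattttccgt
P2ry14, last exon, chr3:59114391-59114417: acacaggggcTGAGTCAccaagacctt
Gm45321, last exon, chr8:49947042-49947068: tacacttctcTGAGTCAtctcagtccc
Mirt1, inner exon, chr19:53449253-53449279: gtggttttgcTGAGTCAcccacctgct
Atp6v1g3, last exon, chr1:138289055-138289081: gtttttgtttTGAGTCAagttctcact
They lay 25, 66, 35, 30, 82 and 82 bp from the summit, in this order. The match of Mirt1 lay just outside its exon, and that of Atp6v1g3 ran past the end of the region.

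The PU.1 matches of the 6 lost regions with the highest ranks among those that hold one are shown in the same way, on the strand that reads GAGGAAGT.
Cep152, inner exon, chr2:125579875-125579902, reverse strand: gttgaaggatGAGGAAGTcccagtgatt
Gm29666, first exon, chr15:84916761-84916788, forward strand: agttggaggcGAGGAAGTgtctggattc
Procr, first exon, chr2:155751607-155751634, forward strand: aagacagggtGAGGAAGTccagttaact
Clec16a, last exon, chr16:10695111-10695138, forward strand: agccatgagtGAGGAAGTcccagtaccc
Ppp1r7, last exon, chr1:93365835-93365862, reverse strand: ctgtgtgaaaGAGGAAGTcggaggcgtg
Ern1, last exon, chr11:106414339-106414366, reverse strand: aaggagctttGAGGAAGTgagtgggaag
The matches lay 0, 6, 21, 7, 18 and 44 bp from the summit, in this order. In Cep152 the match was at the summit and inside the coding stretch printed above, so the same bases are codons of a centriole protein and a PU.1 consensus. The match of Procr lay in the region but beyond its exon.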

How the data were processed

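ATAC-seq peak lists of 4 libraries were used as deposited. The authors aligned reads to mm10 with Bowtie2 2.5.1 and called peaks per library with Genrich at default settings; read filters, duplicate removal and any shift for Tn5 are not given in the sources used here. The main column was the deposited peak signal, Genrich's area under the significance curve, which was used only as a percentile within a list because it grows with depth. The deposited −log10 p-value and the deposited score, a rescaled area, served as description alone. In the q-value column no values were filled in. The study tested differences on reads, which were not analysed here, so read depth is unknown and no counting interval could be given.

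Peaks were merged and classified in Python 3.11.15 (pandas 2.3.3, numpy 2.4.6) with the GENCODE M21 basic annotation (55450 genes) by region centre. Merging was tested on simulated data against bedtools 2.31.1. Sequences, repeats and motif windows came from the RefSeq copy of mm10 (GRCm38.p6), and coordinates are 1-based. Named genes were H3f3a and H3f3b, the 10 gained and 10 lost regions of highest mean percentile, the 5 widest of each set, members in genes of the lists and genes with more than 1 member. The result for 1 marker list is left out. Members and lists were chosen with earlier results of these data known. Shares per library were compared by an exact permutation test over 6 assignments. Where nothing says that libraries came from separate mice, such p-values measure only the spread between these samples. Alternatives were a stricter peak limit (the median area of each list), lists cut to equal length, a call that needs peaks over 0.5 of the region, the class by summit, a wider promoter, protein-coding genes only, other rules for exon position, each library left out and the replicate block.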

Additional observations from a re-analysis of the deposited data

How the results depend on the processing

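The last-exon share stayed higher and the first-exon share lower in gained than in lost regions under all 13 alternatives tried for each. Many of these alternatives reuse or extend the same regions, so their shared direction is no independent support. The inner-exon and width differences changed direction under some alternatives. The counts were 69 gained and 150 lost at the stricter limit, where 6 and 4 of the members remained, 82 and 185 with the promoter of 2.5 kb, and 198 gained and 253 lost with lists of equal length, where 98 of 131 gained and 170 of 295 lost members remained. Leaving out a library gave 132 to 349 gained and 310 to 581 lost regions. The first-exon difference of -8.55 percentage points (gained minus lost) moved to -3.13 by summit and -1.08 with the wider promoter. The inner-exon difference of -2.69 was -6.49 at the stricter limit, 0.988 with equal lists, 0.296 by cover, -8.40 by summit, -8.998 with the wider promoter and -5.47 in protein-coding genes, and -2.88 to -0.766 without single libraries. The last-exon difference of 5.72 was 10.2 at the stricter limit, 9.66 with the wider promoter and 12.4 in protein-coding genes. The difference in median width of -9 bp was 26.5 at the stricter limit, 43.0 with the wider promoter, -38.5 with equal lists, -1.5 by cover, and -64.5 to 58.0 without single libraries. The last-exon share per library (H3.3cKO minus WT, 0.123 points) ran from -0.849 to 1.10 and fell below 0 without WT replicate 1 or H3.3cKO replicate 2 (-0.101). With the comprehensive annotation, chosen after seeing the data, 161 regions were gained and 347 lost. With the replicate number as a block, the shares per library differed by -0.0956 (exact permutation p = 0.5) and 0.123 (exact permutation p = 1), as without it, and with 2 pairs no p under 0.5 is possible. The causes were not tested, and the unknown depth limits what a missing peak shows.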
